A study of Mus musculus with 10 samples.

Results

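The genes described here encode histones and high mobility group (HMG) proteins, and were chosen by gene symbol alone: 52 of the 8590 genes in the deposited table of RNA metabolic rates. They comprised 46 histone genes and 6 HMG genes, which are given apart. Of the histone genes, 37 belong to the clustered families (Hist1 to Hist4), 2 are linker histone variants (H1f0 and H1fx), 6 are H2A variants (H2afj, H2afv, H2afx, H2afy, H2afy2 and H2afz) and 1 encodes the replacement histone H3.3 (H3f3a). The HMG genes were Hmga1, Hmgb1, Hmgb3, Hmgn1, Hmgn2 and Hmgn3.

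The rates came from cortical neurons cultured from mouse embryos at embryonic day 18 and kept for 14 days in vitro, either wild type or Fmr1-knockout. Fmr1 encodes FMRP, an RNA-binding protein whose loss causes fragile X syndrome, and both genotypes carry the strain label FVB.129P2-Pde6b+ Tyrc-ch/AntJ. New transcripts were marked with the uridine analogue 5-ethynyluridine (5-EU), given at 200 µM for 20 or 60 min, with 1 labelled library per genotype and time, 2 input libraries per genotype and 1 pull-down of unlabelled RNA per genotype. The study thus asks whether RNA synthesis, processing or degradation differs in Fmr1-knockout neurons, and the 2 labelling times stand as the 2 replicates of a genotype. Knockout neurons here means the libraries labelled knockout, in which Fmr1 RNA was lower but still present.

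Clustered histone genes are mostly copied during DNA replication. Their mRNAs lack introns and, in place of a poly(A) tail, end in a conserved stem-loop that is bound by the stem-loop binding protein and governs their processing and decay. Variants such as H3.3, H2A.Z (H2afz and H2afv), macroH2A (H2afy and H2afy2) and H1.0 (H1f0) are made outside S phase as well, mostly from polyadenylated mRNAs, and replace clustered histones in neurons, which no longer divide. HMG proteins are small chromatin proteins: HMGA binds AT-rich DNA, HMGB bends DNA through HMG boxes, and HMGN binds nucleosomes. Ribosomal RNA depletion rather than poly(A) selection was used, per the labels' protocols, so that RNA without a tail could be read.

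The stem-loop is shown because it sets the replication-type genes apart. A search of GENCODE M21 transcripts (GRCm38, sense strand only) for GGCNCT, directly followed by TTTN and AGNGCC, found it in 24 of the 46 histone genes (52.2%), 0 of the 6 HMG genes and 45 of 21877 protein-coding genes (0.206%). Of the variants only H2afx held it; many annotated transcripts of clustered genes stop at the coding sequence, and no match there says nothing of the mRNA itself. The motif lay 57 bases before the annotated transcript end in Hist2h2ac, 155 in Hist1h2bg, 330 in Hist1h4i, 822 in H2afx and 2445 in Hist4h4. It is in capitals:
Hist1h2bg: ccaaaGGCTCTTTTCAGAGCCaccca
Hist4h4: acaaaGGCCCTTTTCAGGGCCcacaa
Hist1h4i: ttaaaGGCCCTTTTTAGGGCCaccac
Hist2h2ac: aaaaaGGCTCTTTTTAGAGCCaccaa
H2afx: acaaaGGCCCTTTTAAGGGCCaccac

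Outside the members, 1 of 8268 genes of the rate table held the motif. This was Trim17, named because it was the single hit: its annotated span (chromosome 11, 58954685 to 58973098) starts at the same base as Hist3h2a on the same strand, so that reads of the pair may be shared.

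Promoters, taken from RefSeq on GRCm38.p6, are described for the members with an entry, and any relation to the rates was not tested. In the 100 bases before the start, TATAAA (either strand) was present in 13 of 35 promoters of 34 clustered genes (37.1%), against 5.56% of 32851 promoters of all genes. CCAAT (either strand, where the reverse reads ATTGG) was present in 28 of those 35 (80.0%), against 18.9% of all. Among 7 HMG promoters of 5 genes, 0 held TATAAA and 3 held CCAAT. The sequences show a promoter with both motifs, at chr13:23763568-23763667 (plus strand), one with TATAAA alone, at chr13:23571300-23571399 (plus strand), and one with CCAAT alone, at chr6:136808148-136808247 (plus strand), with the motifs in capitals:
Hist1h1a: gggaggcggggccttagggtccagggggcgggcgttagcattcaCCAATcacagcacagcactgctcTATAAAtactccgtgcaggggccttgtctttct
Hist1h2bg: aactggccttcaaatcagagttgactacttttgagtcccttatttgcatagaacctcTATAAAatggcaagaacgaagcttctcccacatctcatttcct
H2afj: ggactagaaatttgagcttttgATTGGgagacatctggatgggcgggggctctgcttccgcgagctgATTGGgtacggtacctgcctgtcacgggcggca

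Most histone members form a structurally simple group. A single exon block was annotated for 39 of the 46 (84.8%), against 318 of 8590 genes in the table (3.70%), which is why only 7 of them had a processing rate in wild type. The median transcript length was 534 bases for clustered genes, 1872 for HMG genes and 3421 over the table. Paralogs are close copies: the median share of 50-base stretches also found in another gene was 43.2% for clustered genes, and it was 90.1% for Hist1h2ai, 89.8% for Hist1h4m and 49.7% for Hist1h2bg. For such members the split of reads between copies is uncertain. The share was 2.24% for H2afj, and 0% for H1f0, H1fx, H2afv, H2afy, Hist1h1a, Hist1h1b and Hmgn3. Annotated genes of either strand overlapped 22 histone and 3 HMG members, among them Hist1h2be and Hist1h1e, which overlap each other on the same strand.

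The rates imply the RNA level and the reads behind them. In wild type, synthesis divided by degradation gave the same level at 20 and 60 min (within 0.01 log2) for 46 of 46 histone and 5 of 5 HMG genes with rates. The time unit is not stated in the sources used here and was inferred from the values, taking the labelled share after a time t as 1 minus exp(-D t), with D the degradation rate. For single-exon genes, level times RefSeq length came out in whole multiples of 1 unit, within 0.1 of a read, for 94.5% of 201 genes with under 60 reads in the wild-type input, where 20.0% would be so by chance. In the 4 labelled libraries, level times labelled share did so for 90.3% to 93.1% with D per hour, for 20.2% to 83.2% with D per min, and for 13.8% to 34.3% with D per 20, 30 or 120 min. Rates are therefore read as per hour below. Whole reads were recovered in this way for 30 of 39 single-exon members. The wild-type input held 8 to 230 reads per member (median 50), the knockout input 9 to 286 (median 60), and the 20 min libraries a median of 32 in wild-type and 23 in knockout neurons. At 60 min the medians were 87.5 and 70.0. Levels and rates below are per transcript length, in the units of the deposited table, and depend on the lengths assigned to each gene.

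In wild type, the highest RNA level among the members was that of Hist4h4 (chromosome 6, 136801553 to 136804415, minus strand), 141.9, followed by Hist1h1c at 90.8, Hist1h1e at 86.4 and Hist3h2ba at 80.1. Hist4h4, an H4 gene outside the large cluster on chromosome 13, also had the highest synthesis rate in every library: 98.5 and 43.5 in wild type (20 and 60 min), and 62.4 and 27.9 in the knockout. It lies beside H2afj (chromosome 6, 136808244 to 136810074, plus strand), whose synthesis rates were the lowest of the histone genes in the wild-type 20 min library, at 1.12. Whole reads were not recovered for Hist4h4 with its RefSeq length of 439 bases, while its longest annotated transcript has 2863 bases. The length behind its level and synthesis rates is thus uncertain. Across the clustered types, the median level was 54.9 for the 5 H1 genes, 38.8 for the 6 H4 genes, 25.6 for the 4 H3 genes, 19.5 for the 12 H2B genes and 15.2 for the 10 H2A genes. Their ranges overlapped, since H4 genes spanned 5.80 to 141.9 and H1 genes 12.6 to 90.8. Among variants the levels were 53.0 for H2afx, 36.0 for H1fx, 22.6 for H1f0 and 16.0 for H3f3a. The lowest levels were those of Hmgn2, at 0.519, and Hmgb1, at 1.19. For Hmgb1, 36.8% of 50-base stretches occur in other genes, 130 in number, so that the split of its reads is uncertain. In bulk RNA, fewer cells of a type and less RNA per cell cannot be told apart.

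**Figure D1:**
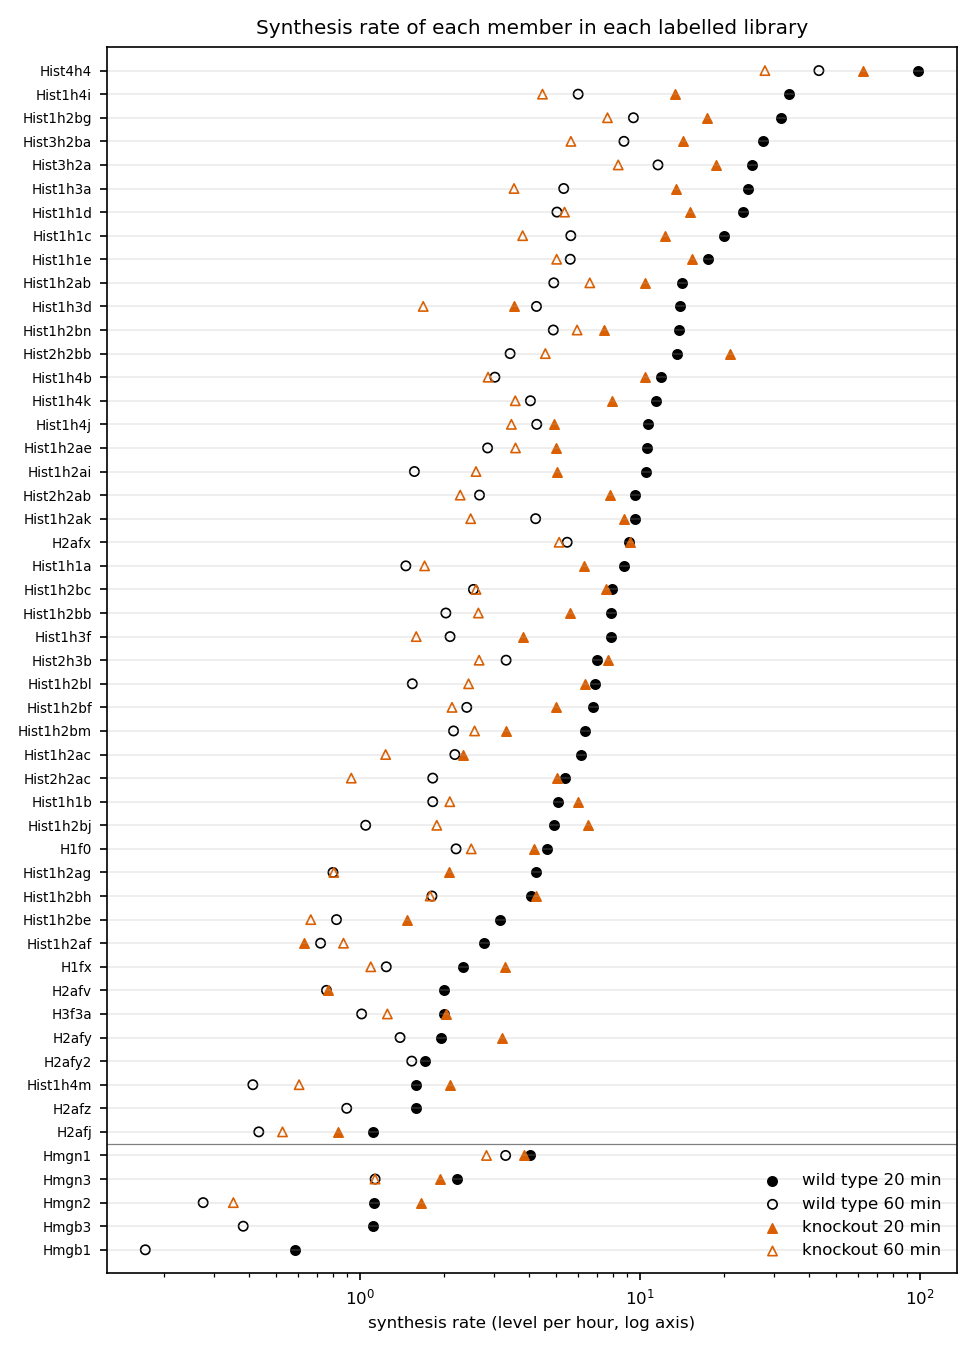
Synthesis rate (log axis, level per hour) of the 51 members with a rate, 1 row per gene, HMG genes below the line; circles are wild type and triangles the knockout, filled at 20 min and open at 60 min. Filled symbols lie to the right of open ones of the same genotype for every member except Hist1h2af in the knockout, and Hist4h4 is highest in all 4 libraries.

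Synthesis estimates of these genes differed between labelling times in both genotypes. The synthesis rate estimated after 20 min exceeded that after 60 min in 46 of 46 histone genes in wild type, with a median ratio of 3.03 (range 1.11 to 6.69), and in 41 of 42 in the knockout, with a median of 2.40. Over all genes the median ratios were 1.03 and 1.09, and 52.0% and 55.9% of genes were higher at 20 min. The exception among the histones was Hist1h2af in the knockout. The 5 HMG genes with wild-type rates were also all higher at 20 min, with a median ratio of 2.91 and a range of 1.22 (Hmgn1) to 4.06 (Hmgn2).

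In a limma comparison of the 2 libraries of 20 min with the 2 of 60 min, added after seeing the data, 29 of 42 histone genes rose at 20 min and 0 fell, with a background of 13.7% of 5794 genes higher and 7.77% lower. The median log2 difference was 1.49 for histone genes and 0.06 for all genes. Of the clustered genes 25 of 37 passed, and of the others 4 of 5 (H1f0, H1fx, H2afj and H2afx), while H3f3a did not (log2 difference 0.84, adjusted p = 0.0539). Both 20 min libraries lay above both 60 min libraries in 40 of 42 histone genes, against 37.1% of genes tested. With genotype as a block 31 of 42 passed, with a background of 12.3%: 30 of 37 clustered genes but 1 of the 5 others, H1fx. The calls of H1f0 (limma adjusted p = 0.0619), H2afj (0.0709), H2afx (0.0703) and the clustered Hist1h2ai (0.0688) were lost. After centring 21 of 37 clustered genes and 1 of the 5 others passed, against 708 higher and 621 lower of 5794 genes. Without the wild-type or the knockout 60 min library, 0 of 42 passed, while the median log2 difference was 1.53 and 1.33. Each time is 1 library per genotype, so labelling time and library cannot be told apart within a genotype, and an exact permutation test of 2 libraries against 2 cannot give a two-sided p under 0.333.

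The H1 genes, which encode linker histones, all passed (5 of 5). Hist1h1a had the largest difference, from 1.46 at 60 min to 8.75 at 20 min in wild type and from 1.70 to 6.31 in the knockout (log2 difference 2.24, SE 0.257, limma adjusted p = 0.0254). The groups did not overlap. It shares 0% of its 50-base stretches with other genes, and 38 and 57 labelled reads stood behind its wild-type rates at 20 and 60 min. Of the core types, 6 of 10 H2A, 8 of 12 H2B, 2 of 4 H3 and 4 of 6 H4 genes passed, with median ratios in wild type of 3.28, 3.25, 3.51 and 3.31. Clustered genes with the stem-loop in an annotated transcript had a median ratio of 3.37 (23 genes) and those without one of 3.36 (14 genes). Among HMG genes, Hmgn2 (log2 difference 2.12, limma adjusted p = 0.0254) and Hmgn3 (0.87, limma adjusted p = 0.0453, lost at 0.0621 with genotype as a block) passed, and Hmgn1 (0.37, adjusted p = 0.245) did not.

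The same values can be read as labelled shares. In wild type the median labelled share of histone RNA was 10.99% after 20 min and 10.3% after 60 min, and it was higher at 60 min in 23 of 46 genes. Over all genes it was 3.63% and 10.5%, and higher at 60 min in 93.6%. For clustered genes the share was 12.6% and 10.9% and higher at 60 min in 14 of 37. For the 9 histone genes outside the clusters it was 4.52% and 7.23%, and higher at 60 min in 9 of 9. For Hist1h2ai, an H2A gene, it was 10.3% and 4.75%, and for Hist2h2ab, with the highest 20 min share of the histones, 30.8% and 26.4%. In the knockout, where synthesis over degradation does not give the level, the share was taken as the labelled amount, S (1 minus exp(-D t)) / D with S the synthesis rate, over the knockout level solved from both rates as described below. The share of histone genes there was 9.98% and 10.7% (36 genes), against 4.001% and 10.9% over all genes. In the knockout it was higher at 60 min in 26 of 36 histone genes and 22 of 31 clustered genes, against 92.0% of all genes.

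**Figure D2:**
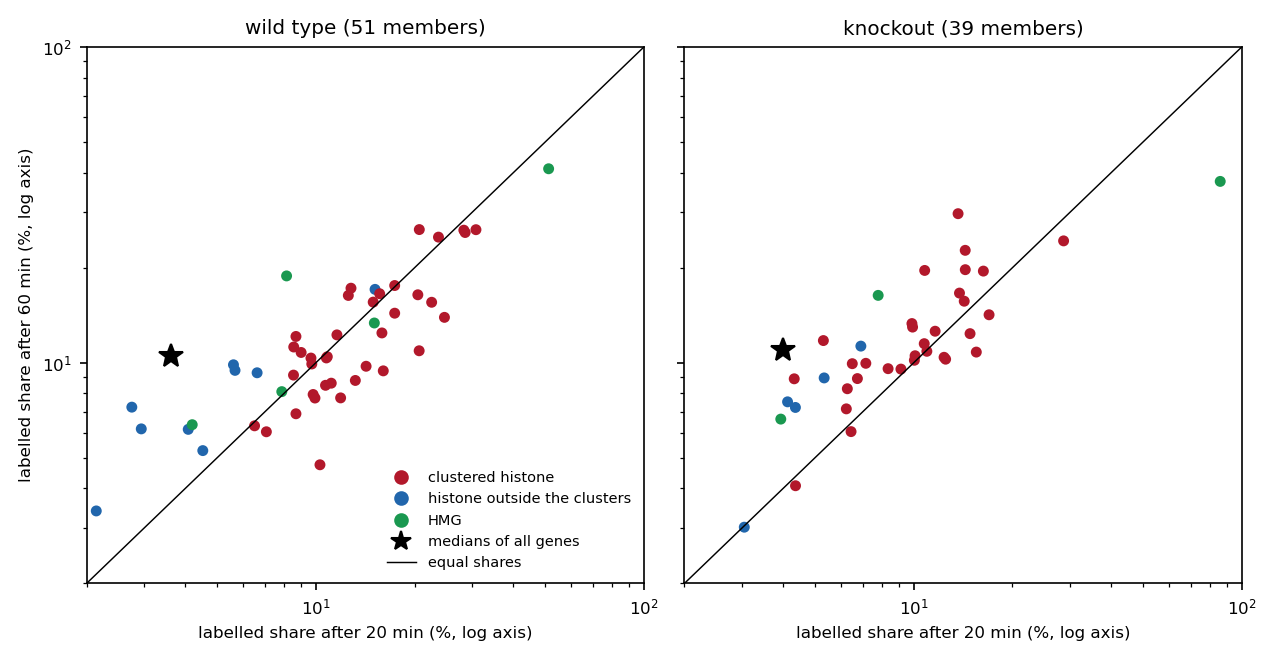
Labelled share of each member's RNA (%, log axes) after 20 min (x) and 60 min (y), in wild type (left, 51 members) and the knockout (right, 39 members), with a line of equal shares and a star at the medians of all genes. Clustered histone genes lie around the line, while the star lies above it at 3.63% and 10.5% in wild type.

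Smaller shifts were seen in other short genes. Other single-exon genes of the table had a median ratio of synthesis between 20 and 60 min of 1.19 in wild type (252 genes), and other genes with transcripts under 1000 bases one of 1.56 (243 genes). Across 7682 genes the log2 ratio in wild type had a Spearman rho of -0.21 with transcript length and 0.27 with GC content, as a description over genes that share libraries. The part of length, GC content and fragment size in the histone values was not tested.

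Expressed as half-lives (the natural log of 2 over the degradation rate), the median histone rate in wild type was 0.349 at 20 min, or 1.99 h, and 0.109 at 60 min, or 6.34 h. Over all genes it was 6.24 h and 6.23 h. In the 9 genes outside the clusters the medians were 4.99 h and 9.23 h. At 20 min the histone median lay below that of all genes, and at 60 min close to it. By limma at 20 against 60 min, the degradation rate passed in 0 of 36 histone genes and 0 of 5716 genes. With genotype as a block 0 passed as well. The median log2 difference was 1.29 for these histone genes and 0.06 for all genes. With the level difference between genotypes set to 0, as described below, 27 of 36 histone genes passed as higher at 20 min. Over all genes 817 of 5699 then passed as higher and 440 as lower.

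Between genotypes, the number of histone genes whose degradation rate changed depended on the fit. In all 4 libraries 36 histone genes had a rate, and by limma without a block H2afj rose in the knockout (adjusted p under 0.05) while 0 fell. With labelling time as a block 11 of 36 passed (background 48%), and with the level difference between genotypes set to 0, as described below, 0 of 36. Without a block the background was 23.1% of 5716 genes called, 20.5% higher and 2.57% lower. The median log2 change was 0.09 for these histone genes and 0.65 for all genes tested. Of the 36, 21 lay within 1 log2 unit of 0, and the range ran from -2.70 (Hist1h2bg) to 2.47 (H2afj). Not among the 36 were 6 genes, given below, with a knockout rate at 20 min only, which was lower than in wild type in all 6. The authors' deposited table, over 42 histone genes, gave a median of -0.12. Both knockout libraries lay above both wild-type libraries in 7 of 36 (background 52.6%) and below them in 2 of 36 (background 16.5%). Of the 3 HMG genes with all rates 1 rose, Hmgn2, and their median was 1.05.

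H2afj encodes H2A.J, an H2A variant. Its degradation rate was 0.139 and 0.0541 at 20 and 60 min in wild-type and 0.508 and 0.455 in knockout neurons, or 0.0964 ± 0.0599 and 0.481 ± 0.0375 (SD, n = 2 per genotype). Both knockout values exceeded both wild-type values. The log2 change was 2.47 (SE 0.558, limma adjusted p = 0.0456), and the authors' deposited table gave 2.47 as well, with adjusted p = 0.0147. The call was lost when each library was centred on its median (log2 change 1.61, limma adjusted p = 0.129) or quantile normalized (1.57, 0.124). It was lost without the wild-type 60 min (limma adjusted p = 0.0711), the knockout 20 min (0.400) or the knockout 60 min library (0.316). Synthesis of H2afj ran at 1.12 and 0.435 (20 and 60 min) in wild-type and 0.837 and 0.529 in knockout neurons (log2 change -0.07, SE 0.605), and the groups overlapped.

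The degradation rates of the knockout carry the difference in RNA level between genotypes. The relation D = (S - (M_KO - M_WT)) / M_KO, with S the synthesis rate and M the levels, gave the same knockout level at both times for 36 of 36 histone genes (within 0.01 log2; 92.6% of all genes). As a level is set against a rate, the relation implies a time step of 1 h for the level difference. It was found from the values, and how the authors' fit came to hold it is not given in the sources used here. For H2afj the level was 8.04 in wild-type and 5.89 in knockout neurons, from 50 and 46 input reads, a ratio of 0.732 with a 95% counting interval of 0.480 to 1.12. Of 29 members with recovered input reads, 0 had an interval that excluded 1. These intervals cover counting error only. With the level difference set to 0, an alternative added once the data had been seen, the change of H2afj was 0.21 (limma adjusted p = 1.00), and 0 of 5699 genes passed (37 at an unadjusted p under 0.05). The histone median was then -0.12.

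Across the 36 histone genes the change of degradation rate had a Spearman rho of -0.90 with the change of level, and across 5716 genes one of -0.92; both quantities hold the level, so this describes the rates and carries no test. Of 25 histone genes with a lower level in the knockout, 18 had a higher degradation rate, and of 11 with a higher level, 10 had a lower one. With labelling time as a block, 7 histone genes rose and 4 fell (background 38.2% higher and 9.76% lower). With the block and centring together, 0 rose and 9 fell (background 13.9% higher and 22.4% lower). Those that rose were H2afj, Hist1h2bf, Hist1h2ab, H1f0, Hist1h2bj, Hist1h1e and Hist1h4m, with level ratios of 0.678 to 0.896. Those that fell were Hist1h2bg, Hist1h3a, H2afx and Hist1h1c, with level ratios of 1.02 to 1.21. Recomputed with the level difference at 0, the same 11 ranged from -0.79 to 0.74, and 0 histone genes passed with or without the block.

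**Figure D3:**
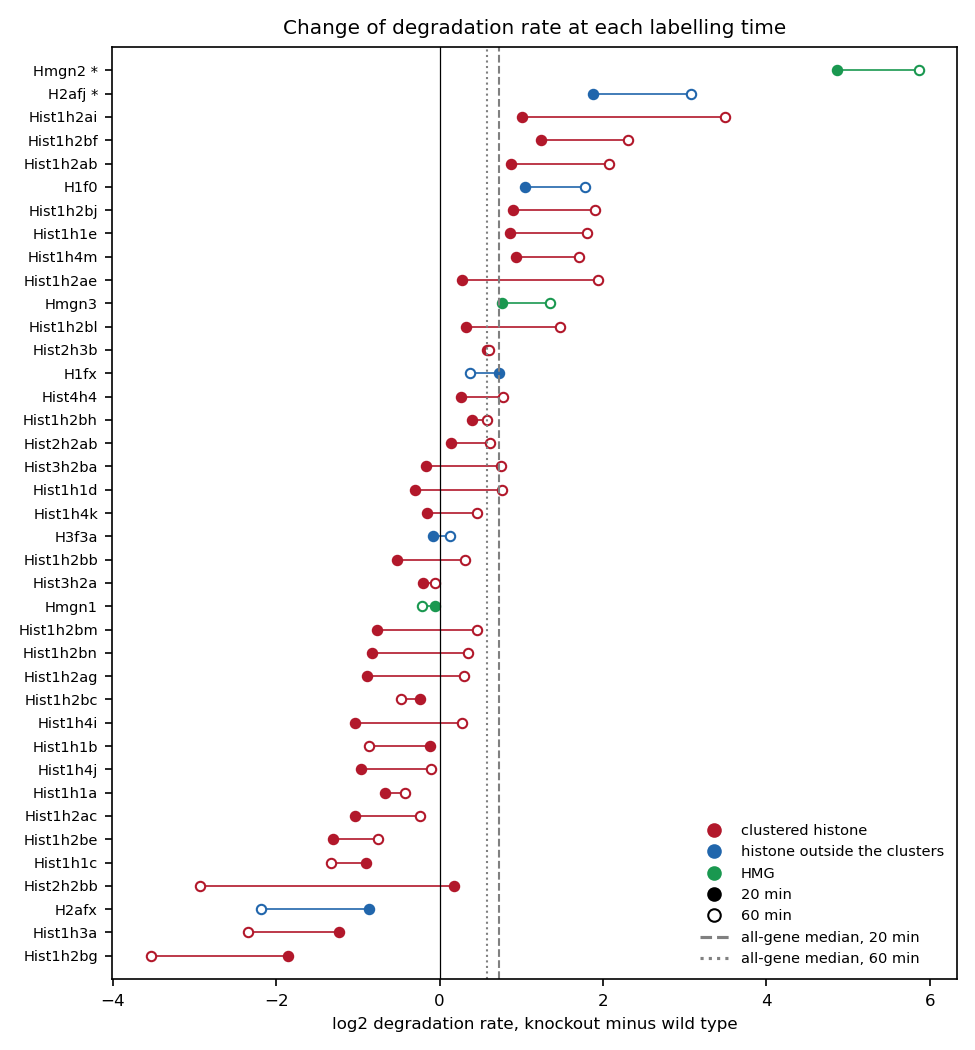
Log2 difference of degradation rate between knockout and wild type at 20 min (filled) and 60 min (open) for the 39 members with all rates, sorted by their mean; an asterisk marks limma adjusted p under 0.05, and grey lines are the medians of all genes, 0.73 and 0.58. Most clustered histone genes lie to the left of the grey lines, and Hmgn2 and H2afj carry the asterisk.

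**Figure D4:**
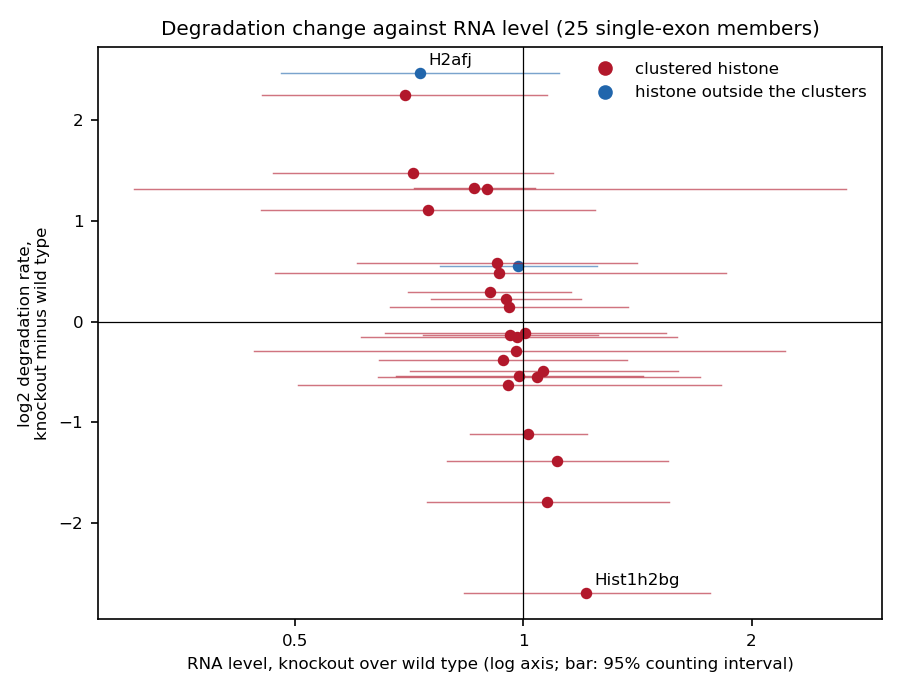
Log2 change of degradation rate (y) against the ratio of RNA level between knockout and wild type (x, log axis) for 25 single-exon histone members with recovered reads; bars are 95% counting intervals of the ratio. Every bar crosses 1, while the change falls from 2.47 for H2afj to -2.70 for Hist1h2bg.

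The 2 other histone members with the largest changes did not pass. Hist1h2bg, an H2B gene, had degradation rates of 1.007 and 0.299 in wild-type and 0.278 and 0.0258 in knockout neurons, or 0.653 ± 0.501 and 0.152 ± 0.178 (SD, n = 2). Both knockout values lay below both wild-type values; the log2 change was -2.70 (SE 1.34, limma adjusted p = 0.199), 0.0214 with labelling time as a block, and -0.78 with the level difference at 0. The authors' deposited table gave a log2 change of -1.61 for it. Its input reads were 50 in wild-type and 76 in knockout neurons. Hist1h2ai, an H2A gene, had rates of 0.326 and 0.0487 against 0.657 and 0.547, or 0.187 ± 0.196 and 0.602 ± 0.0778 (SD, n = 2), also without overlap. Its log2 change was 2.25 (SE 0.985, limma adjusted p = 0.157) and 0.15 with the level difference at 0.

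Genes with a rate in all 4 libraries are not all members, and those left out differed. A degradation rate was listed in both wild-type libraries for 46 histone genes, and 10 of these lacked one in the knockout. H2afy2, H2afz, Hist1h2af and Hist1h3d had none in either knockout library (4 of 46, or 8.70%, against 19.5% of all genes). H2afv, H2afy, Hist1h2ak, Hist1h3f, Hist1h4b and Hist2h2ac had one at 20 min only. In these 6 the level was higher in the knockout and the 20 min degradation rate lower, by 0.48 (H2afy) to 4.11 (Hist2h2ac) on the log2 scale. For the 4 of them with a 60 min synthesis rate it lay under the level difference, so that the relation above would give a rate below 0: for Hist2h2ac the synthesis rate was 0.931 and the level difference 4.57, from 15 and 28 input reads. The authors' deposited table tested 42 histone genes and called H2afj higher and H2afv, Hist1h2ak and Hist2h2ac lower, against 29.2% higher and 7.09% lower of 6182 genes in the same table.

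Close relatives were listed unevenly. The H2A.Z genes H2afz and H2afv had wild-type degradation rates of 0.175 and 0.493 at 20 min and 0.0993 and 0.187 at 60 min, and H2afv one of 0.0396 in the knockout at 20 min. The macroH2A genes H2afy and H2afy2 had 0.0894 and 0.0836 at 20 min and 0.0637 and 0.0751 at 60 min, and H2afy one of 0.0640 in the knockout at 20 min. H3f3a, 1 of the genes for H3.3, had 0.125 and 0.0635 in wild-type and 0.119 and 0.0695 in knockout neurons, with overlap between genotypes (log2 change 0.03, SE 0.524). Its relative H3f3b is not listed under that name in the deposited rates.

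HMG genes differed among themselves. Hmgn2, which encodes a nucleosome-binding protein, had degradation rates of 2.15 and 0.530 in wild-type and 62.8 and 30.8 in knockout neurons, or 1.34 ± 1.15 and 46.8 ± 22.6 (SD, n = 2). Both knockout values were higher than both wild-type values (log2 change 5.36, SE 0.829, limma adjusted p = 0.0252, and 0.0532 after centring). Its level was 0.519 in wild-type and 0.0305 in knockout neurons, the lowest of all members in both genotypes, and 67.1% of its 50-base stretches occur in 18 other genes. The level solved from the knockout rates was 0.0340 at 20 min and 0.0274 at 60 min, a log2 difference of 0.31. Of the 39 members with a knockout degradation rate at both times, Hmgn2 was the 1 whose solved levels differed by more than 0.01 log2, a limit chosen after the values were seen. With the level difference at 0 the change was 0.64. The authors' deposited table holds no test of the degradation rate of Hmgn2.

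Hmgn3 had degradation rates of 0.129 and 0.0657 in wild-type and 0.218 and 0.167 in knockout neurons, or 0.0972 ± 0.0445 and 0.193 ± 0.0361 (SD, n = 2). The groups did not overlap, and the log2 change was 1.05 (SE 0.470, limma adjusted p = 0.164), and -0.017 with the level difference at 0. Hmgn1 had 0.255 and 0.209 against 0.245 and 0.180, or 0.232 ± 0.0326 and 0.212 ± 0.0461, with overlap (log2 change -0.14, SE 0.359, limma adjusted p = 0.795). Its level was 15.9 in wild-type and 15.8 in knockout neurons. The HMGB genes, whose products bend DNA, had rates in wild type only: 0.490 and 0.143 for Hmgb1 and 0.246 and 0.0844 for Hmgb3, at 20 and 60 min. Hmga1 was listed with no rate.

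Synthesis rates did not pass between genotypes for any member. By limma 0 of 42 histone and 0 of 3 HMG genes were called, with a background of 0% (0 of 5794; 18 genes, 0 of them histone, had an unadjusted p under 0.05). Histone genes had a median log2 change of -0.29, HMG genes of -0.10 and all genes of -0.03. At 20 min 33 of 42 histone genes were lower in the knockout, with a median of -0.46, and at 60 min 23 of 42, with a median of -0.09. Over all genes 46.0% were lower at 20 min and 62.0% at 60 min. After quantile normalization the histone median was -0.10, with 24 of 42 genes below 0 in place of 33. By limma without that step, the most negative change was that of Hist1h3d, an H3 gene, with 13.9 and 4.27 in wild-type and 3.55 and 1.68 in knockout neurons, a log2 change of -1.66 that did not pass; both knockout values lay below both wild-type values, which was so for 1 of 42 histone genes (background 9.2%), and the reverse held for 0 of 42 (background 8.92%). In the authors' deposited table its change was -0.73, and the most negative histone gene was Hist1h2ac at -1.11.

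The median ratio of RNA level between knockout and wild type was 0.982 over 42 histone genes, 17 of them higher in the knockout, and 0.962 over all genes with a level in both.

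Processing rates could be compared in 3 histone genes, Hist1h2bc, Hist1h2be and H3f3a, and in Hmgn1, Hmgn2 and Hmgn3. By limma 0 of 6 passed (background 0%; 783 of 5082 genes at an unadjusted p under 0.05). Hist1h2bc had 67.5 and 21.6 in wild-type and 21.3 and 6.92 in knockout neurons (log2 change -1.65, limma adjusted p = 0.399, and -0.67 in the authors' deposited table). Both knockout values lay below both wild-type values, which was so for 1 of the 3 histone genes (background 35.1%). With labelling time as a block, Hist1h2bc (limma adjusted p = 0.0135) and Hist1h2be (0.0496) fell and Hmgn2 (0.0209) rose, with a background of 19.3% lower and 6.26% higher. On recomputed rates with the same block Hist1h2be did not pass (limma adjusted p = 0.0565), and Hmgn2 turned to -3.12 (0.0116). With the block and centring Hist1h2be did not pass either (0.181).

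Genes that act on histones were taken from lists. Of histone chaperones and exchange factors, 21 of 34 listed genes were tested for degradation; 5 rose and 1 fell, with a median log2 change of 0.71. Over all genes tested 20.5% rose and 2.57% fell, with a median of 0.65, and the counts of these short lists are read against those shares. Those that rose were Dnajc9 (3.13), a co-chaperone for H3 and H4, Cabin1 (2.73), of the HIRA complex that deposits H3.3, Ipo4 (2.52), an importin for H3 and H4, Vps72 (2.49), an H2A.Z chaperone, and Anp32b (1.73). Npm1 (nucleophosmin), named after its value was seen, fell by 1.36. Of factors for histone mRNA 3′ ends and decay, 11 of 16 were tested: the cleavage factors Cstf2 (2.62) and Cpsf3 (2.33) rose, and the cap-binding gene Ncbp1 fell by 3.12 (median 0.74). Of other HMG-box genes, 14 of 24 were tested, 0 rose, and Tfam, which packs mitochondrial DNA, and Sox8, a transcription factor, fell by 3.68 and 2.05 (median 0.11). With the level difference at 0 these 11 genes ranged from -0.54 (Tfam) to 1.54 (Dnajc9), and 0 passed; for synthesis and processing, 0 genes of these lists passed.

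The targeted gene and other cell types were checked. Fmr1 had an RNA level of 10.5 in wild-type and 3.37 in knockout neurons. Its RNA was thus still present in the libraries labelled knockout, and gene-level rates do not show whether it holds the disrupted part of the gene. It was synthesised at 0.810 and 0.692 (20 and 60 min) in wild-type and 2.06 and 1.56 in knockout neurons, so that its level followed the labels and its synthesis rate did not (log2 change of its degradation rate 5.18, limma adjusted p = 0.0235, and 1.95 with the level difference at 0). Of 9 markers of dividing cells 7 were listed, with a summed wild-type level of 26.8; 6 of them had a level in wild type only. The 1 with both, Ccna2, had 3.62 in wild-type and 4.17 in knockout neurons, and its degradation rate fell (log2 change -2.90, limma adjusted p = 0.0235, and 0.028 with the level difference at 0). Of 15 neuronal markers 5 were listed (summed level 119.3 in wild type), of 7 astrocyte markers 3 (71.2), of 7 markers of the oligodendrocyte lineage 5 (64.3) and of 6 microglial markers 0. Missing knockout rates were not limited to dividing cells. Among listed markers, 3 neuronal, 1 astrocyte and 3 oligodendrocyte-lineage genes also had rates in wild type only. Over all genes the share left without a knockout degradation rate, given above, was 19.5%. The part of dividing or glial cells in the histone values was not tested.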

How the data were processed

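Metabolic rates were taken from the deposited table of 4 labelled libraries. The authors' table holds synthesis, processing and degradation rates, named for INSPEcT per the labels; RNA was spiked with 10% each of fly and yeast RNA per the labels, while whether these entered the rates, the model design and the unit of time are not given in the sources used here. The submitters' processing notes name cutadapt, Bowtie2, TopHat2, HISAT2 and limma, and the builds mm10, dm6 and sacCer3. The authors also deposited 3 tables with log2 changes, p-values and adjusted p-values, and score values (moderated statistic, log odds) that were not used, per the file headers. The number of per-sample columns left unused was 0.

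For each rate, genes above 0 in all 4 libraries were compared on log2 values without a pseudocount by limma 3.58.1 (R 4.3.3; lmFit, eBayes, Benjamini-Hochberg over all genes, threshold 0.05); the fit was tested on simulated data. Nothing states that libraries came from separate cultures, so p-values may measure technical spread. Libraries pair by labelling time, which the labels give; deviations of same-time libraries correlated across genes (Pearson 0.248 for degradation, 0.334 for synthesis, 0.581 for processing). Members, lists and tests were chosen with earlier results of these data known. Values are given for members called in any rate and for the 3 largest degradation changes per group, and list genes are named if called, at most 5 per list by the size of their change; Npm1 was added to these after its value was seen. Coordinates, transcripts and overlaps are from GENCODE M21 (GRCm38), promoters and lengths from RefSeq GRCm38.p6. Of the 52 members, 47 matched a promoter. Recovered reads carry 95% Clopper-Pearson (ratios) or exact Poisson limits.

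Alternatives were labelling time as a block, centring, quantile normalization, both, leaving out the lowest 25% of mean rates, a pseudocount, an eBayes trend, a threshold of 0.01, the authors' tables and leaving out each library. Added after seeing the data were the comparison of labelling times and knockout rates recomputed with the level difference at 0.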

Additional observations from a re-analysis of the deposited data

Results flagged for a closer look

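Several effects of genotype had opposite signs at the 2 labelling times; in each case the difference between times was not tested. The median log2 change of the degradation rate of histone genes was -0.14 at 20 min and 0.42 at 60 min. The synthesis rate of H2afj changed by -0.41 at 20 min and 0.28 at 60 min, and that of Hist1h2ai by -1.05 and 0.73. The processing rate of Hmgn1, which was also the median of the HMG genes, changed by 0.13 at 20 min and -0.019 at 60 min. With 1 library per genotype and time, each of these values has no replicate.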

How the results depend on the processing

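Of 481 values under alternatives for 35 results, 345 kept their direction, their side of the threshold or, for counts, stayed within 1.5 times. The cause of the others was not tested, except that recomputation removes the level difference by construction. Leaving out a library leaves 1 sample of a genotype, or of a labelling time where times are compared, assumed to vary like the other group.

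For the degradation rate between genotypes, 1321 genes passed in all. The count was 2741 with labelling time as a block, 92 after centring, 596 after quantile normalization, 2070 with the block and centring, 2245 in the authors' deposited table, and 0 at a threshold of 0.01 or on recomputed rates, with or without the block. It was 1 to 1112 with a library left out. For histone genes the count of 1 (higher) became 11 with the block (7 higher, 4 lower), 9 with the block and centring (0 higher, 9 lower), 4 in the authors' deposited table, 0 under centring, quantile normalization, the threshold of 0.01 and recomputation, and 0 to 4 with a library left out. The histone median of 0.09 became -0.77 after centring (also with the block), -0.73 after quantile normalization, -0.12 in the authors' deposited table and on recomputed rates, 0.19 with low values left out, 0.055 with a pseudocount, and -0.64 to 0.90 with a library left out. For HMG genes the count of 1 became 0 after centring, at 0.01 and on recomputed rates. The authors' deposited table called 0 of 2 HMG genes and holds no degradation value for Hmgn2, the gene called here. The HMG median of 1.05 (3 genes) became 0.20 after centring (also with the block), 0.13 after quantile normalization and -0.017 on recomputed rates. It was 0.57 to 1.54 with a library left out, and 0.46 in the authors' deposited table, over 2 genes without Hmgn2. Hmgn3 reversed to -0.017 on recomputed rates, with or without the block, and Hmgn1 ranged from -0.36 to 0.087 with a library left out. Centring each library on its own median moved the median change of all genes from 0.65 past 0 to -0.20, so values after centring are read against -0.20.

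For the synthesis rate between genotypes, the count over all genes was 0 and became 3 to 16 with a library left out. The medians then ranged from -1.10 to 0.50 for histone genes and from -0.55 to 0.38 for HMG genes, whose median was -0.047 after quantile normalization. The same ranges were -0.75 to 0.61 for H2afj, -0.65 to 1.57 for Hmgn2, -1.47 to 0.28 for Hist1h2bg, -1.53 to 1.21 for Hist1h2ai, -0.59 to 0.38 for Hmgn3 and -0.37 to 0.076 for Hmgn1. Hmgn2 reversed to -3.45 on recomputed rates, with or without the block.

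For the processing rate between genotypes, the count over all genes was 0. It became 1300 with the block, 688 with the block and centring, 1023 with the block on recomputed rates, and 1 to 95 with a library left out. Of 3 histone genes 2 passed with the block and 1 with the block and centring or on recomputed rates, and their median ranged from -2.06 to -0.12 with a library left out. Of 3 HMG genes 1 passed under each of these blocks. The HMG median of 0.06 became 0.41 after centring (also with the block), 0.42 after quantile normalization and -0.38 on recomputed rates (also with the block). With a library left out it was -0.16 to 0.28. It was -0.16 with low values left out and -0.15 in the authors' deposited table, each over 2 genes without Hmgn2. Hmgn2 reversed to -3.12 on recomputed rates, with or without the block. With a library left out Hmgn3 ranged from -0.86 to 0.11 and Hmgn1 from -0.16 to 0.28.

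For synthesis at 20 against 60 min, the count of genes higher at 20 min was 793, and 0 to 1140 with a library left out. It was 29 for histone genes, and 0 to 41 with a library left out. For HMG genes it was 2, and 1 with the genotype block, after centring or on recomputed rates, and 0 to 2 with a library left out. Depth limits single members: medians of 23 and 32 reads in the 20 min libraries give wide counting intervals.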
